A study of Mus musculus with 12 samples.

Results

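The vascular endothelial growth factor (VEGF) and angiopoietin ligands and receptors are described here as 10 genes, chosen by name from the 55679 genes of the deposited gene table. They comprise 6 ligand genes (Vegfa, Vegfb, Vegfc, Vegfd, Angpt1 and Angpt2) and 4 receptor genes (Kdr, Flt1, Flt4 and Tek). RNA of the whole lung and the whole heart of 6 male mice was sequenced, 3 WT and 3 KO for Adam19, a membrane metalloprotease of the ADAM family, which gave 12 libraries. All mice were adults of 9 to 13 weeks on the 129S6/SvEvTac background, with 1 library per tissue and mouse and 3 libraries per tissue and genotype. The WT mice carried unmodified Adam19, and the KO mice were homozygous for the Adam19-tdTomato allele, in which exons 6 and 7 of Adam19 are replaced in every cell by a tdTomato red reporter with a hygromycin resistance cassette. The replicate number of a genotype marks the same mouse in both tissues. The mouse identifiers of the genotypes share no prefix. The labels do not say what a prefix stands for, and whatever it marks and genotype cannot be told apart.

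VEGF ligands are secreted dimers that bind receptor tyrosine kinases on endothelial cells. Vegfa binds Kdr (VEGFR-2), the main signalling receptor of blood vessels, and Flt1 (VEGFR-1), which binds the ligand tightly but signals weakly, while Vegfb binds Flt1, and Vegfc and Vegfd bind Flt4 (VEGFR-3), the receptor known for lymphatic growth. The angiopoietins act on Tek (TIE2), with Angpt1 as the activating ligand that keeps vessels stable and Angpt2, released by endothelial cells, as a ligand that can oppose it. In adult lung, alveolar epithelium is a known source of Vegfa for the dense capillary bed, and in heart Vegfb is known as an abundant product of muscle.

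The estimated counts per library summed to between 17674788 and 35862932. The value of a gene is the deposited log2 value, which already carries a scaling between libraries. Adam19 lay between 9.12 and 9.41 in WT lungs and between 3.21 and 4.44 in KO lungs, and between 9.17 and 10.27 in WT hearts and between 6.01 and 6.67 in KO hearts. Lung WT replicate 3 stood apart from its group. The 7SL RNA gene Rn7s1 took 2.10% of its summed gene abundance, where the other WT lungs had 34.0% and 29.9% and the KO lungs between 3.22% and 20.3%. Its mean correlation with the other libraries of its tissue, 0.950, was the lowest of the 12, so results that rest on it are also given without it. Heart muscle genes marked the heart libraries and alveolar genes the lung libraries as labelled: all 10 cardiomyocyte genes were called higher in heart, and all 8 alveolar type 2 genes higher in lung.

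The order of the genes within a tissue was read from scaled estimated reads per kilobase of transcript, since only values per length compare genes. In the 6 lungs, Vegfa had the highest summed level, with a median of 4170.0 reads per kilobase, followed by the receptors Tek at 2152 and Kdr at 1689. Each transcript entered this sum at its own length, so short Vegfa transcripts weigh more per count than long ones. They include Vegfa-203 (513 bases) and the retained introns Vegfa-206 (640) and Vegfa-208 (550), against 3465 bases for Vegfa-202. The lead of Vegfa over Tek rests largely on them, and the order without them was not tested. The ranges of Tek and Kdr overlapped, although Tek was above Kdr in all 6 lungs. Flt1 (771) and Angpt1 (522) came next with overlapping ranges, then Vegfd (289) and Flt4 (210.3), also overlapping. Vegfc (113), Vegfb (79.1) and Angpt2 (67.4) were the lowest, and their neighbouring ranges overlapped too.

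In the 6 hearts the order was different at both ends. Vegfa had a median of 1429.8 reads per kilobase and Vegfb one of 1399, with overlapping ranges, and Vegfa was above Vegfb in only 2 of 6 hearts. The Vegfa sums again hold the short transcripts, and its place above Vegfb depends on them. Kdr (753) and Flt1 (499) did not overlap with each other, whereas Flt1, Tek (448) and Angpt1 (447) overlapped with their neighbours. Flt4 (107), Vegfc (56.9) and then the pair Angpt2 (22.1) and Vegfd (18.2) closed the order. By the median of these sums, Vegfb was second lowest of the 10 genes in lung and second highest in heart, though above Vegfa in the other 4 hearts. Vegfd was the lowest of the 10 in heart.

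**Figure D1:**
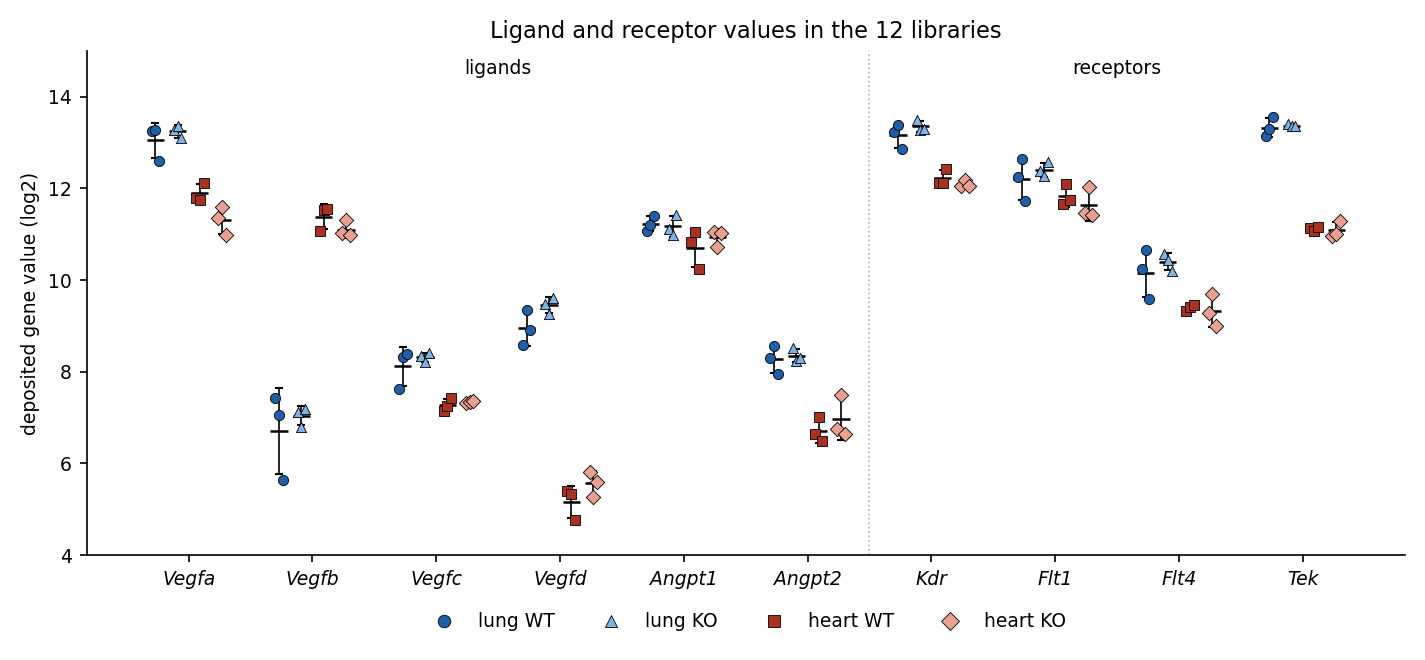
Deposited gene values (log2, vertical axis) of the 6 ligand and 4 receptor genes in each of the 12 libraries, with points for libraries, horizontal lines for the mean of 3 and bars for 1 SD. Vegfb stands between 5.64 and 7.42 in lungs and between 10.99 and 11.55 in hearts, while Vegfd and Tek lie higher in every lung than in any heart.

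The first comparison asked how the genes differ between lung and heart. Vegfa (chromosome 17, minus strand, 46327919 to 46343309, GRCm39) is the ligand of both blood vessel receptors. Its value was 13.25, 13.28 and 12.61 in WT lungs 1 to 3 and 13.28, 13.36 and 13.09 in KO lungs, against 11.78, 11.76 and 12.13 in WT hearts and 11.35, 11.59 and 10.97 in KO hearts. Every lung was above every heart, and WT lung 3 was the lowest of the lungs. The lung minus heart difference was 1.55 (SE 0.15, adjusted p = 5.59e-07 in limma), a 2.92-fold higher value in lung.

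Vegfb (chromosome 19, minus strand, 6958447 to 6965127), the ligand of Flt1, went the other way. It stood at 7.42, 7.06 and 5.64 in WT lungs and 7.13, 6.81 and 7.19 in KO lungs, and at 11.07, 11.53 and 11.55 in WT hearts and 11.02, 11.30 and 10.99 in KO hearts. All hearts were far above all lungs, with WT lung 3 again lowest. The difference was −4.37 (SE 0.25, adjusted p = 4.26e-09), 20.6-fold higher in heart, and −4.10 without WT lung 3. Estimated counts of Vegfb in lungs were between 59.8 and 172, the fewest for any ligand in that tissue. Its locus overlaps Trpt1 on the opposite strand, which the stranded libraries keep apart.

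Vegfd (chromosome X, plus strand, 163156240 to 163185646), a ligand of Flt4, had the largest lung excess of the 10 genes. Its value was 8.58, 9.34 and 8.91 in WT lungs and 9.48, 9.26 and 9.60 in KO lungs, compared with 5.39, 5.32 and 4.76 in WT hearts and 5.82, 5.28 and 5.61 in KO hearts. The tissues were separated by more than their own widths. The difference was 3.83 (SE 0.18, adjusted p = 5.83e-10), which is 14.3-fold, although hearts held only 14.6 to 59.9 estimated counts of it. Vegfc (chromosome 8, plus strand, 54530257 to 54640131), the other Flt4 ligand, ranged from 7.63 to 8.40 in lungs and from 7.15 to 7.42 in hearts without overlap, and its difference was 0.91 (SE 0.14, adjusted p = 6.79e-05).

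The angiopoietins differed from each other. Angpt2 (chromosome 8, minus strand, 18739202 to 18791603, on the strand opposite to Mcph1) was 8.30, 8.56 and 7.96 in WT lungs and 8.52, 8.24 and 8.30 in KO lungs, and 6.63, 7.02 and 6.49 in WT hearts and 6.75, 7.49 and 6.65 in KO hearts. No heart reached the lowest lung, and the difference was 1.48 (SE 0.18, adjusted p = 5.70e-06), or 2.78-fold. Angpt1 (chromosome 15, minus strand, 42288058 to 42540417) ranged from 10.98 to 11.43 in lungs and from 10.24 to 11.06 in hearts. These ranges overlapped. Its difference of 0.38 (SE 0.14, adjusted p = 0.0257) corresponds to 1.30-fold, under the 1.5-fold required for a call.

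Among the receptors, Tek (chromosome 4, plus strand, 94627291 to 94763224) differed most. It was 13.13, 13.29 and 13.56 in WT lungs and 13.40, 13.35 and 13.35 in KO lungs, and 11.13, 11.07 and 11.17 in WT hearts and 10.97, 11.001 and 11.28 in KO hearts. Both tissues were tight and far apart. The difference was 2.24 (SE 0.095, adjusted p = 2.70e-10), a 4.73-fold higher value in lung.

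Kdr (chromosome 5, minus strand, 76093487 to 76139884) was 13.23, 13.38 and 12.86 in WT lungs and 13.48, 13.28 and 13.29 in KO lungs, and 12.12, 12.12 and 12.43 in WT hearts and 12.06, 12.17 and 12.05 in KO hearts. The lungs were again all higher, by 1.09 (SE 0.11, adjusted p = 9.64e-07), or 2.13-fold. Flt4 (chromosome 11, plus strand, 49500090 to 49543582, 3.46 Mb from Adam19 on the same chromosome) ranged from 9.60 to 10.65 in lungs and from 9.002 to 9.69 in hearts. Only WT lung 3 fell within the heart range, and the difference was 0.92 (SE 0.17, adjusted p = 0.000263).

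Flt1 (chromosome 5, minus strand, 147498414 to 147662826) was the receptor closest to equal. It was 12.24, 12.63 and 11.73 in WT lungs and 12.39, 12.26 and 12.57 in KO lungs, and 11.66, 12.10 and 11.75 in WT hearts and 11.47, 12.03 and 11.41 in KO hearts. WT lung 3 lay among the hearts. The difference of 0.57 (SE 0.16, adjusted p = 0.00637) was 1.48-fold, just under the threshold of 1.5-fold. Without WT lung 3 it was 0.68 (adjusted p = 0.000862) and passed, and it did so too without lung KO replicate 2 (0.60), without heart WT replicate 2 (0.63) and without heart KO replicate 2 (0.67). It missed the adjusted p threshold with median-of-ratios scaling (0.36, adjusted p = 0.0703) and in the WT libraries alone (0.36, adjusted p = 0.225).

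In all, 7 of the 10 genes were called higher in lung, where 30.1% of the 17666 genes tested were, and 1 gene, Vegfb, was called higher in heart, where 21.2% of genes were. For a call, the adjusted p had to lie below 0.05, the change had to reach 1.5-fold, and at least 1 group mean had to reach 6. The lung and heart libraries did not overlap for 6 genes higher in lung and 1 higher in heart, against 34.8% and 22.6% of all genes. The median difference was 1.01 over the 10 genes and 0.31 over all genes tested. Median-of-ratios scaling lowered the latter to 0.10 and each member's difference by about as much, and the same 8 genes were called. Within WT mice alone the same 8 genes passed, and within KO mice Flt1 passed as well, at 0.77. Bulk RNA does not tell whether a tissue holds fewer cells of a type or less RNA per cell.

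**Figure D2:**
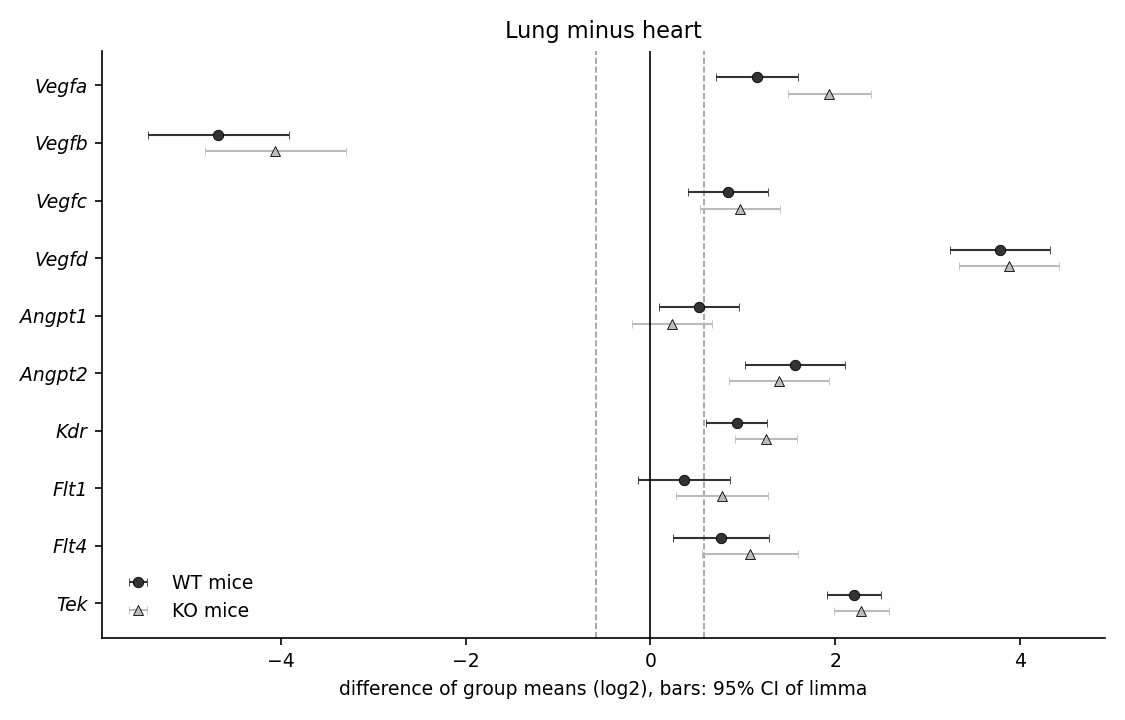
Lung minus heart difference (log2, horizontal axis) for each ligand and receptor gene in WT mice (dark circles) and KO mice (grey triangles), with 95% confidence intervals from limma and dashed lines at 1.5-fold. Vegfb lies at −4.68 and −4.06 on the heart side, and Vegfd and Tek lie farthest on the lung side in both genotypes.

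Endothelial marker genes also differed between the tissues. Of all genes tested, 30.1% were called higher in lung and 21.2% higher in heart, and the counts of each list here and below stand beside these shares. Of 14 endothelial genes such as Cldn5, Ramp2, Icam2 and Egfl7, 10 were higher in lung and none lower, with a median difference of 1.51, and Cldn5, a tight junction protein of endothelium, was higher by 3.51. Emcn was the exception in direction, at −0.02. Of 12 genes known from lung capillary endothelium, 11 were higher in lung, led by Prx (6.14), Hpgd (5.47), Tmem100 (5.20) and Tbx2 (4.26). The summed level of the 14 endothelial genes had a mean log2 of 15.85 in WT lungs, 15.88 in KO lungs, 14.26 in WT hearts and 14.37 in KO hearts, and no gene of the list was at 0 in any group.

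The lymphatic list did not move as one. Prox1, the transcription factor that defines lymphatic endothelium and is also made in heart muscle, was higher in heart by 5.23 (a lung minus heart difference of −5.23), as was Fgl2 (−1.69), while Pdpn (4.21), which alveolar type 1 cells also make, and Lyve1 (2.57) were higher in lung. In total 5 of 10 genes were higher in lung and 2 in heart. Among 10 mural genes, 5 were higher in heart, including Abcc9 (−5.25), Rgs5 (−3.93) and Kcnj8 (−2.83), and 2 were higher in lung, including Higd1b (1.84). Abcc9 and Kcnj8 encode potassium channel subunits, and Abcc9 is also expressed by heart muscle. Of 10 fibroblast genes, Inmt (5.98), Npnt (4.70) and Tcf21 (2.30) were among the 4 higher in lung, and Lum (−3.15) was among the 2 higher in heart. Counts of 2 in 10 are no higher than the shares over all genes tested, 30.1% for lung and 21.2% for heart. The part of these lists in the differences of the ligands and receptors was not tested.

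The identity of the tissues was plain in their defining genes. Slc34a2 (10.74), Lamp3 (10.58), Sftpc (10.54) and Sftpb (10.46) led the alveolar type 2 list. Cldn18 (10.45), Ager (9.94), Aqp5 (8.999) and Rtkn2 (7.88) led the alveolar type 1 list, in which 9 of 10 genes were higher in lung. Myl2 (−11.24), Nppa (−9.13), Myl3 (−8.97) and Pln (−7.95) led the heart muscle list. Of 8 adipocyte genes only Fabp4, which capillary endothelium of the heart also makes, was called (−2.58), and none of 8 red cell genes was called.

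Of 12 other genes of the VEGF axis (coreceptors, semaphorins, processing factors and the ligand gene Pgf), 8 were higher in lung and 2 in heart, with a median of 0.90. The 2 higher in heart, named after their values were seen, were Adamts3 and Pgf, another ligand gene of the VEGF family. The group means of Pgf were 5.49 in WT and 5.93 in KO lungs, and 6.85 in WT and 6.90 in KO hearts. The class 3 semaphorins led the genes higher in lung, with Sema3e (6.68), the ligand of plexin D1, ahead of Sema3a (3.58), Sema3c (3.55, also on the lung capillary list) and Sema3g (2.94), all of which act through neuropilins or plexins. Of 20 genes of VEGF receptor signalling, 9 were higher in lung and 3 in heart (median 0.44), where 30.1% and 21.2% of all genes tested were. Esm1, an endothelial gene induced by VEGF, was higher by 4.26, the kinase Src by 2.95 and the protein kinase C gene Prkcb by 2.09. Nos3, the endothelial nitric oxide synthase, was higher in heart (−2.03).

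Of 11 further genes of the TIE axis, 7 were higher in lung and 1 in heart (median 0.88). Ptprb, the endothelial phosphatase that dampens TIE2, was higher by 2.28, the adaptor Dok2 by 1.39 and the flow-regulated factor Klf2 by 1.32, while the integrin subunit Itga5 was higher in heart (−1.38). Genes of the hypoxia response, which is known to drive Vegfa, were called in both directions: of 18, 8 were higher in heart, 2 were higher in lung and 8 were not called (median −0.21). Egln3 (−6.08) and Egln1 (−3.08), the prolyl hydroxylases that mark hypoxia-inducible factors for decay, led with Adm (−2.37) and Pdk1 (−2.18). The 2 genes higher in lung, named after their values were seen, were Epas1 (2.16), which encodes a hypoxia-inducible factor subunit, and Ero1a (1.15), an oxidase of the endoplasmic reticulum.

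Ratios within a library do not depend on the scaling between libraries. For 8 such log2 differences, lung and heart of the same mouse were compared by sign flips over 6 mice, an exact two-sided permutation test that cannot go below 0.0313. All 8 reached this smallest p, with the same adjusted value, since each went one way in 6 of 6 mice. Angpt1 minus Angpt2 was 2.88 ± 0.33 (SD, n = 6) in lungs and 3.98 ± 0.43 (SD, n = 6) in hearts, a lung minus heart difference of −1.096. Flt1 minus Kdr was −0.95 ± 0.17 in lungs and −0.42 ± 0.28 in hearts (SD, n = 6 each). Vegfa minus Flt1 was 0.84 ± 0.22 in lungs and −0.14 ± 0.33 in hearts (SD, n = 6 each). These are differences of log2 values between genes of unequal length, so only their change between tissues has a reading.

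Tek minus Tie1, the receptor and its orphan partner, was 1.39 ± 0.56 in lungs and 0.03 ± 0.23 in hearts (SD, n = 6 each). WT lung 3 had the highest value, 2.54, and the other lungs lay between 1.12 and 1.21. The mean lung minus heart difference was 1.36 with that mouse and 1.11 without it. Relative to the mean of the 14 endothelial genes, the receptors separated. Tek was 1.93 ± 0.19 above it in lungs and 1.18 ± 0.17 in hearts (SD, n = 6 each), a difference of 0.75. The VEGF receptors went the other way, with lung minus heart differences of −0.40 for Kdr, −0.93 for Flt1 and −0.57 for Flt4. Compared with that mean, then, Tek was higher in lungs and the VEGF receptors were higher in hearts, in 6 of 6 mice each.

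**Figure D3:**
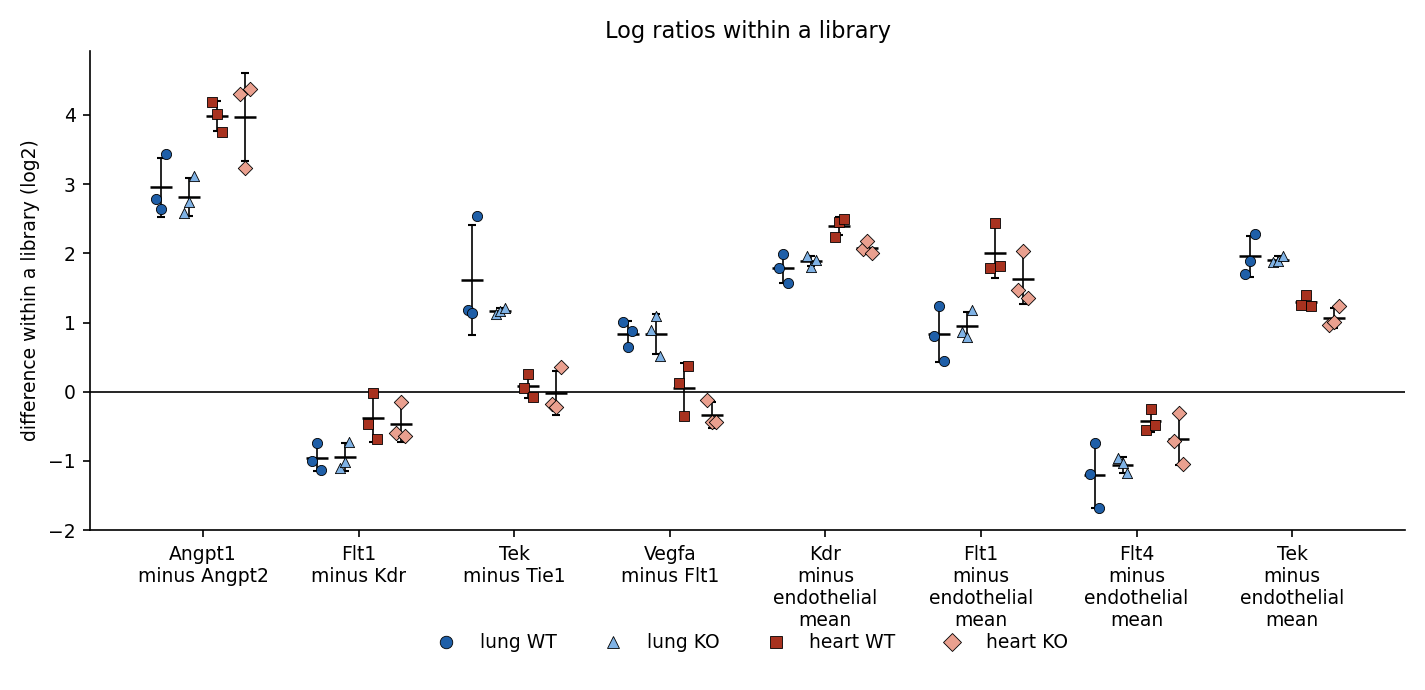
Log2 differences between 2 genes, or between a receptor and the mean of 14 endothelial genes, within each library (vertical axis), with points for libraries, lines for the mean of 3 and bars for 1 SD. Tek minus the endothelial mean lies between 1.70 and 2.28 in lungs and between 0.97 and 1.41 in hearts, and Flt1 minus the same mean lies lower in the lungs.

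Forms of 4 genes differ by coding exons, whose sequences are given because the shares below are shares of forms with and without them. Vegfa forms differ by exons that carry the basic, heparin-binding stretches. The form Vegfa-207 has both exons shown, Vegfa-202 only the longer one and Vegfa-201 neither, and each exon is a multiple of 3 bases. The annotated proteins are of 392, 368 and 146 codons, since the first pair starts farther upstream. The exons lie on the minus strand of GRCm39 at chr17:46333203-46333274 (72 bases) and chr17:46331917-46332048 (132 bases), and capitals mark the exon between 12 bases of each neighbouring exon.
Vegfa 72-base exon: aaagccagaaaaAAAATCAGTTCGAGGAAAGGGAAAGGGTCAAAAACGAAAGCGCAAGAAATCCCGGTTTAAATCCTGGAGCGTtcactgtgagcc
Vegfa 132-base exon: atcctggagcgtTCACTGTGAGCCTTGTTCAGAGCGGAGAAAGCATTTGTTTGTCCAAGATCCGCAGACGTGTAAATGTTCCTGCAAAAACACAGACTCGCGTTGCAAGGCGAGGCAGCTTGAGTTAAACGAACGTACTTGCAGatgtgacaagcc

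Vegfb-201 encodes 207 codons and Vegfb-202 encodes 188. The longer protein uses a splice site 101 bases upstream in the same exon, which shifts the reading frame of what follows. It is the form known to diffuse freely, while the shorter one binds heparin. The coding part of that exon in Vegfb-201 is at chr19:6962754-6962964 (GRCm39, minus strand), with the 101 bases found only in Vegfb-201 in capitals, after 12 bases of the exon before.
Vegfb-201 exon: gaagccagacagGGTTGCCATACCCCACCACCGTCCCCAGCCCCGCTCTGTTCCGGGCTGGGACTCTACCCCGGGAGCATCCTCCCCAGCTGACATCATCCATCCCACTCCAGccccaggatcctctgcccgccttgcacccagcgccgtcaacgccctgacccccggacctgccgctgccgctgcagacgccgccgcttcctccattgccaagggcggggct

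The full-length form of Flt1 encodes the receptor of 1333 codons, and a soluble form of 688 codons ends in intron sequence, lacks the membrane span and kinase, and is known as a soluble trap for VEGF. Its own coding end is at chr5:147575943-147576034 (GRCm39, minus strand, 92 bases, in capitals), between 12 shared bases and the stop codon. Tek-201 and Tek-203 differ by 3 bases at the end of one exon, at chr4:94740112-94740114 (plus strand, in capitals), with 24 bases on each side.
Flt1 soluble coding end: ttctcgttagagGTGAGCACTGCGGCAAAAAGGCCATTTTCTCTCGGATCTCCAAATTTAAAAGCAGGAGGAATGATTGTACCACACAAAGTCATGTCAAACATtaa
Tek-203 junction: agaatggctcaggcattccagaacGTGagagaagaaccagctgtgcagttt

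For the other 6 genes, 1 coding form held at least 94.3% of the estimated counts in every library. Of Vegfa, the form with only the 132-base exon was the main one, with 63.8% ± 5.001 (SD, n = 6) of counts in lungs and 74.8% ± 2.89 (SD, n = 6) in hearts. It was lower in lung in 6 of 6 mice, by 11 percentage points on average (exact p = 0.0313, adjusted p = 0.469 over 15 shares). Vegfa-201, without either exon, was 13.5% ± 4.02 in lungs and 6.47% ± 2.97 in hearts (SD, n = 6 each), higher in lung in 5 of 6 mice (exact p = 0.0625, adjusted p = 0.469). No share passed the adjustment in any comparison.

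The soluble form held 26.7% ± 3.04 of Flt1 counts in lungs and 27.5% ± 1.86 in hearts (SD, n = 6 each), a difference of −0.79 percentage points (exact p = 0.594). The membrane form held the rest but for traces, 73.3% and 72.2%. Tek-203 held 65.1% ± 3.86 in lungs and 59.0% ± 9.60 in hearts, and Tek-201 28.6% ± 3.14 and 35.4% ± 8.11 (SD, n = 6 each). The Tek shares spread widely among hearts, from 48.4% to 70.8% for Tek-203, and the estimates rest on 3 bases.

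**Figure D4:**
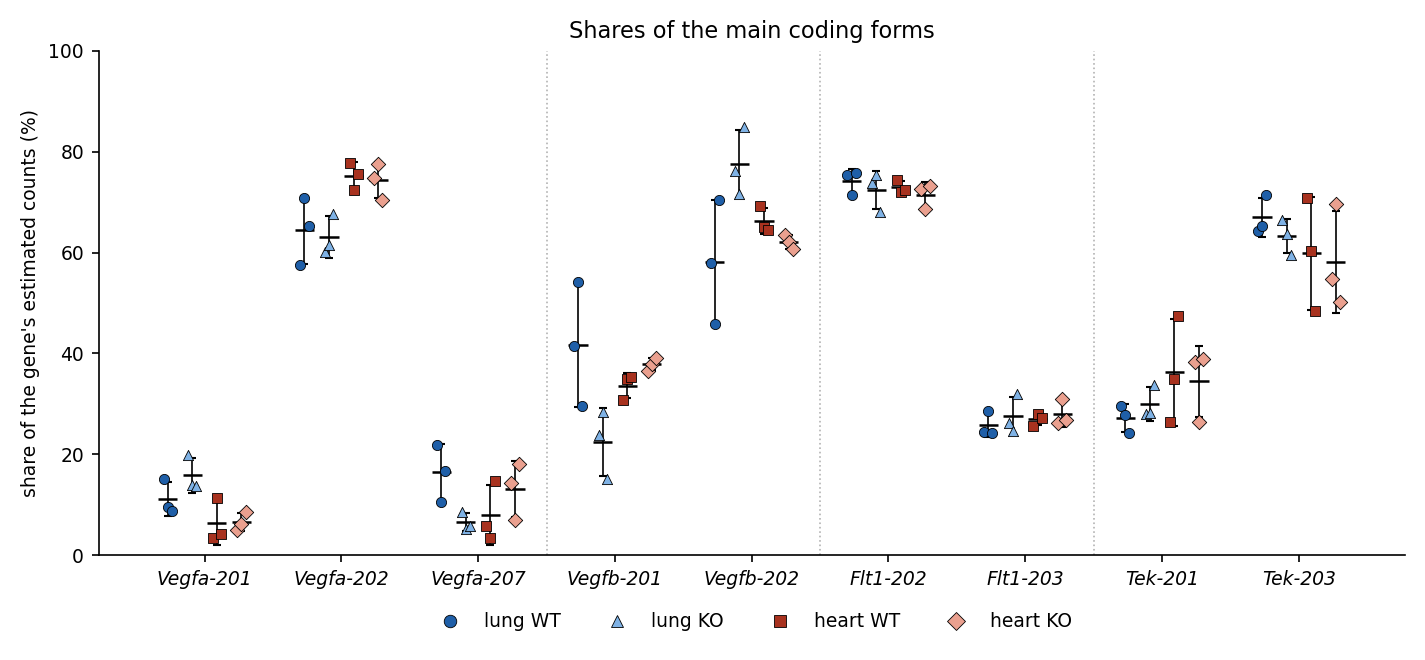
Share of a gene's estimated counts (%, vertical axis) held by each main coding form of Vegfa, Vegfb, Flt1 and Tek, with points for libraries, lines for the mean of 3 and bars for 1 SD. Vegfa-202 lies between 57.5% and 70.8% in lungs and between 70.5% and 77.7% in hearts, and the full-length Flt1 form, left of the soluble one, holds 68.1% to 75.7% in every library.

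The second comparison asked what the loss of Adam19 changed in each tissue. In the lung, 0 of the 10 genes were called between KO and WT, where 0.0665% of the 16551 genes tested were, and limma-voom also called 0. Of all genes tested, 981 had an unadjusted p under 0.05. The KO and WT libraries were without overlap for 0 of the 10 genes, against 12.8% of genes tested. The differences ran from −0.06 for Angpt1 to 0.50 for Vegfd, with a median of 0.20 over the members and 0.01 over all genes. Vegfd alone had an unadjusted p under 0.05. It was higher in KO by 0.50 (SE 0.22, 95% confidence interval 0.0091 to 0.997, unadjusted p = 0.0467, adjusted p = 0.828 in limma), and the WT lung at 9.34 lay within the KO range. Without WT lung 3, it was 0.49 (unadjusted p = 0.0712). Of the other 9 genes, Vegfb had the widest interval, −0.63 to 1.30, and Tek the narrowest, −0.32 to 0.40. WT lung 3 decided several signs: without it, the difference went from 0.34 to −0.20 for Vegfb, from 0.20 to −0.02 for Vegfa, from 0.21 to −0.03 for Flt1, from 0.24 to −0.05 for Flt4 and from 0.08 to −0.08 for Angpt2, and turned from −0.06 to 0.03 for Angpt1.

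In the heart, 0 of the 10 genes were called either, where 0.0850% of the 15303 genes tested were, and limma-voom also called 0. Of all genes tested, 1141 had an unadjusted p under 0.05, 1 of them a member. The 10 differences had a median of −0.06, against 0.03 over all genes. The KO and WT hearts did not overlap for 1 gene, Vegfa, against 13% of genes tested. Its value was between 11.76 and 12.13 in WT hearts and between 10.97 and 11.59 in KO hearts. The difference was −0.58 (SE 0.18, 95% confidence interval −0.99 to −0.18, unadjusted p = 0.00996, adjusted p = 0.558 in limma), and all 3 KO hearts were lower. When the counts of the listed transcripts were summed in place of the deposited gene value, it was −0.34 (unadjusted p = 0.132). The 10 heart muscle genes had a mean log2 summed level of 21.12 in WT and 21.13 in KO hearts. In scaled estimated reads, the summed level of the 10 mural cell genes was 46938 to 47894 in WT hearts and 51984 to 56339 in KO hearts. That of the 14 endothelial genes was 18946 to 20057 and 20935 to 21320, so neither overlapped. The lung capillary list (4583 to 5330 in WT, 5550 to 6224 in KO) did not overlap either. Nor did the VEGF signalling list, which was lower in KO (20214 to 22845 in WT, 17672 to 19820 in KO). The sums of the other lists overlapped in hearts. Lungs too had lists without overlap. The mural list was higher in KO lungs (14079 to 15264 in WT, 15489 to 19191 in KO). So was the VEGF axis list (35948 to 39571 in WT, 39767 to 43201 in KO). The lung capillary list was lower (47456 to 48377 in WT, 41557 to 45717 in KO). So was the alveolar type 2 list (433353 to 479681 in WT, 331727 to 391702 in KO). How often sums of other gene lists separate was not tested. Singly, 2 of the 14 endothelial genes did not overlap in hearts, against 13% of genes tested. In limma, 0 of the 10 mural genes were called, and 4 had an unadjusted p under 0.05. The largest of their differences, named after the values were seen, were 1.38 for Tagln (adjusted p = 0.194), 0.81 for Myh11 (adjusted p = 0.315) and 0.62 for Acta2 (adjusted p = 0.484). These 3 smooth muscle genes were higher in KO hearts without overlap, while 1 mural gene, Abcc9 (−0.11), was lower without overlap. Over the 10 mural genes the median difference was 0.31. The part of these marker lists in the Vegfa value was not tested. Vegfb, at −0.28, Vegfd, at 0.41, and the other 7 genes had intervals that held 0. The receptors lay between −0.20 for Flt1 and −0.04 for Tek, and Vegfc at 0.07.

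**Figure D5:**
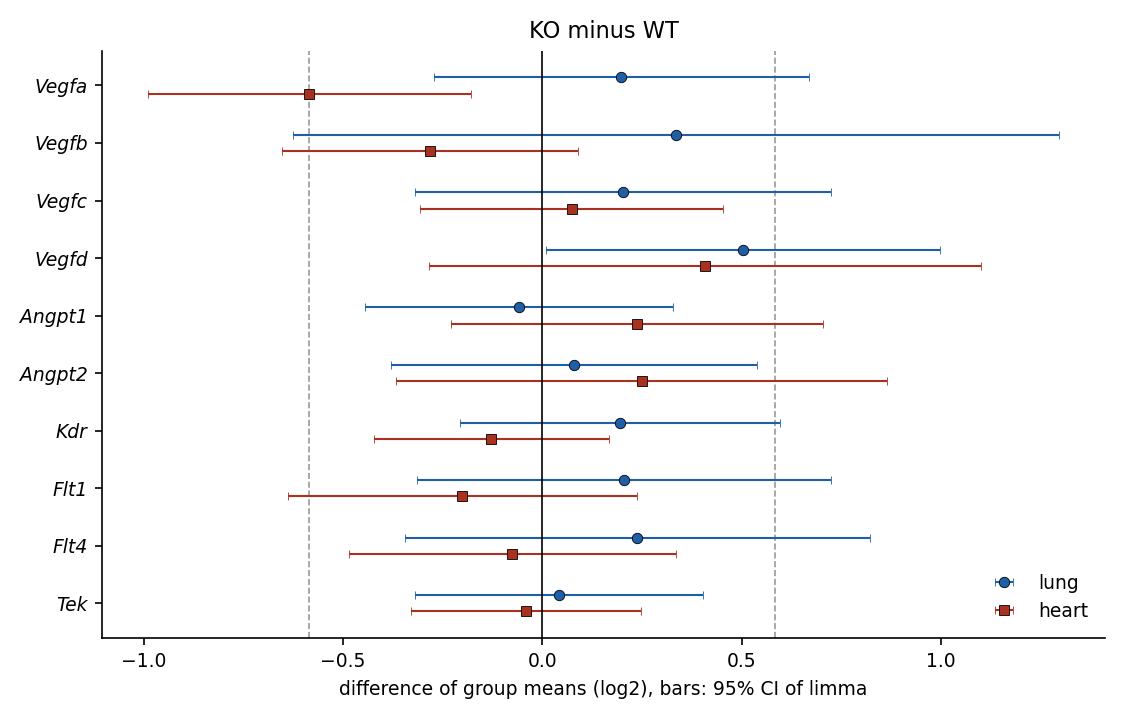
KO minus WT difference (log2, horizontal axis) of each gene in lung (blue circles) and heart (red squares), with 95% confidence intervals from limma and dashed lines at 1.5-fold. In heart only the interval of Vegfa, −0.99 to −0.18, lies off 0, and in lung only that of Vegfd, 0.0091 to 0.997.

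Whether the genotype difference itself differed between tissues was tested in 1 model of 12 libraries, the same libraries that gave the tissue and genotype values above. In limma and in limma-voom, 0 of the 10 genes passed at an adjusted p under 0.05, where 0.00566% of genes did, and 1 of the 10 had an unadjusted p under 0.05, as had 1392 of all genes. This was Vegfa, whose lung difference exceeded its heart difference by 0.78 (SE 0.29, unadjusted p = 0.0193, adjusted p = 0.599 in limma). With summed transcripts, that value was 0.20, and without WT lung 3 it was 0.56. For the other 9 genes it lay between −0.30 for Angpt1 and 0.62 for Vegfb, which was 0.083 without WT lung 3.

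Transcript shares differed in position between genotypes in a few cases. In lungs, 3 of 15 shares did not overlap, against 12.3% of the transcript shares of all genes. Vegfa-207, with both exons, held 21.9%, 10.6% and 16.8% of Vegfa counts in WT lungs and 8.61%, 5.26% and 5.77% in KO lungs, so every KO lung was below every WT lung (exact p = 0.10, the smallest possible with 3 against 3, adjusted p = 0.50). This holds for Vegfa-207 and not for the 72-base exon as such. Vegfa-203 has 7 coding exons where Vegfa-201 has 6, and is not among the 15 shares. Its estimated counts went the other way, at 195, 152 and 304 in WT lungs and 574, 1235 and 394 in KO lungs. Vegfb-201 held 41.4%, 54.1% and 29.5% in WT lungs and 23.9%, 28.3% and 15.2% in KO lungs (exact p = 0.10, adjusted p = 0.50). Vegfb-202, the other share, was the mirror of it. These lung shares rest on few reads, with 17.6 to 61.9 estimated counts of Vegfb-201 per lung.

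In hearts the Vegfb shares were apart in the opposite direction. Vegfb-201 held 30.7%, 34.8% and 35.3% in WT hearts and 36.6%, 38.0% and 39.1% in KO hearts (exact p = 0.10, adjusted p = 0.50). With Vegfb-202 and Kdr-201 (98.8% to 99.7% in WT and 99.7% to 100% in KO), 3 of 15 shares did not overlap in hearts, against 9.97% of all transcript shares. Vegfa-207 was 8.01% ± 5.91 in WT hearts and 13.1% ± 5.63 in KO hearts (SD, n = 3 each), with overlap. The difference between the tissues in these share changes was not tested.

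No ratio within a library passed between genotypes. In lungs the exact p was at least 0.60 for all 8. In hearts, Kdr minus the endothelial mean was lower in all 3 KO hearts, by 0.31 on average (a difference of −0.31, exact p = 0.10, adjusted p = 0.533), and the summed level of the 14 endothelial genes ran from 20935 to 21320 in KO hearts and from 18946 to 20057 in WT hearts, without overlap. Kdr itself differed by −0.13 between KO and WT hearts. The ratio subtracts the mean of these 14 genes, so its change also holds the change of that mean. Of the genes of the 14 marker and pathway lists, 0 were called between genotypes in either tissue by limma.

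Genes whose values tracked a ligand or receptor were sought among 17665 genes over the 12 libraries, as the correlation of deviations from the 4 group means. These correlations are descriptive, and the libraries share depth and composition. Kdr was most like Itprip (Pearson r = 0.99) and Plbd2 (0.98), and Angpt2 most like Kcnn3 (0.99) and Gm3200 (0.96). Flt1 went with Prkaa2 (0.99), the catalytic alpha subunit of AMP-activated kinase, and Rcan2 (0.97). For Vegfa the nearest were B4galt1 and Lrp5, for Vegfb Tsc22d2 and Rnf6, for Vegfc Kcnip2 and Fbxl22, for Flt4 Mfn2 and Pgap6, and for Angpt1 Gm44751 and Hpgd, each at 0.96 to 0.98. Vegfd (Gm57411 and Chst2, 0.93 and 0.92) and Tek (Gm15459 and Wdr33, 0.95 for both) had the lowest of these values.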

How the data were processed

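Members and gene lists were chosen with earlier results of these data known. Per the file headers and the labels, the authors trimmed strand-specific total RNA reads, quantified them with Salmon against GENCODE transcripts of mm39, and deposited log2 gene values and log2(1 + estimated count) transcript values. The scaling constant of each library was read from genes with 1 transcript, and the method behind it is not given in the sources used here. The authors' notes also name limma 3.42.2. Each test had been planned for log2 values. Genes whose deposited value reached 3.46 in 3 or more of the libraries fitted entered limma 3.58.1 (R 4.3.3, lmFit, eBayes with trend, Benjamini-Hochberg over all genes tested). Genotype was fitted within a tissue, and tissue and the interaction in 1 model of 12 libraries. The bound of 3.46 is 10 estimated counts before scaling, and the scaling constants ran from −0.63 (lung KO replicate 2) to 0.80 (heart WT replicate 3). Fold changes are differences of log2 values, which understate changes of low genes. Calls also needed a fold change of 1.5 and a group mean of 6.

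Shares of estimated counts used coding forms of the reference annotation (GENCODE of GRCm39, 37 of 37 member transcripts matched by identifier, 23 with the same version) with a mean share of at least 10% in a group. Shares and ratios were compared by exact two-sided permutation tests. With 3 mice against 3, p cannot go below 0.10. Scripts were tested on simulated data. Named genes are the 10 members, up to 4 called genes of each list with the largest difference, the 2 genes most correlated with each member, and Adam19. Near-identical copies were searched with blastn 2.17.0 (95% identity over at least 100 nucleotides): on the same strand, only a 146-nucleotide match of Flt4 to Gm67348 was found. Same-mouse lung and heart deviations correlated at −0.07 to 0.14, and pairing comes from the mouse identifiers. Alternatives changed the filter, pseudocount, scaling, gene summary, test and libraries.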

Additional observations from a re-analysis of the deposited data

How the results depend on the processing

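The counts of genes called between genotypes (0 in lung, 0 in heart) and for the interaction (0) were 0 under every alternative run, and the 8 genes called between tissues were called under all 23 alternatives, with Flt1 added in 6 of them. With the mouse as a replicate block, the tissue count was 8 and the interaction count 0, so the block changed no call. Without the block, 8 of 8 ratios passed, as with it. When 1 mouse was left out, 0 ratios passed, because 5 mice cannot give a p below 0.0625, but no ratio changed sign. The 20 correlations of similar genes, tested with alternatives chosen after seeing the data, ranged from 0.488 to 0.996. Direction changed in the cases that follow. Summing transcripts turned Vegfa in lung KO against WT to −0.14, and quantile normalization turned Vegfc (−0.018) and Tek (0.0089) in heart. Leaving out 1 library gave ranges in lung of −0.021 to 0.31 for Vegfa, −0.20 to 0.69 for Vegfb, −0.040 to 0.34 for Vegfc, −0.030 to 0.42 for Flt1, −0.045 to 0.48 for Flt4, −0.19 to 0.038 for Angpt1, −0.076 to 0.22 for Angpt2 and −0.055 to 0.16 for Tek. In heart the ranges were −0.26 to 0.086 for Flt4, −0.013 to 0.41 for Angpt2 and −0.14 to 0.018 for Tek. For the interaction they were −0.11 to 0.27 for Vegfc, −0.088 to 0.30 for Vegfd, −0.33 to 0.093 for Angpt2 and −0.014 to 0.20 for Tek. The cause was not tested. With 3 mice per group, the intervals leave room for genotype differences above 1.5-fold in 7 of 10 genes in lung.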
